A study of Mus musculus with 6 samples.

Results

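The alpha-actinins and the proteins that bind them at the Z-disc were followed in C2C12 cells, a mouse myoblast line that fuses into multinucleated myotubes in culture. The genes were chosen by symbol: the 4 actinin genes *Actn1*, *Actn2*, *Actn3* and *Actn4*, the 3 myozenin genes *Myoz1*, *Myoz2* and *Myoz3*, and *Ldb3*, *Tcap* and *Myot*. All 10 symbols were found among the 54525 gene rows of each count table. RNA sequencing covered myoblasts harvested at day 0 (D0, 3 cultures) and myotubes harvested when they had differentiated for 5 days (D5, 3 cultures), all of genotype WT and with treatment None. The D0 cells were grown in DMEM with fetal bovine serum, and differentiation was in DMEM with horse serum, so the change of medium and the days in culture cannot be told apart from each other in this design. All 6 libraries come from the same immortalized line, and the labels give every one of them, the D5 libraries included, the cell type of myoblasts. Replicates are cultures of that line, so the p-values below measure the spread between cultures and not between animals.

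Alpha-actinins are antiparallel dimers that cross-link actin filaments. *Actn1* and *Actn4* encode the non-muscle forms, which are found in stress fibres and focal adhesions, whereas *Actn2* and *Actn3* encode the sarcomeric forms, which anchor thin filaments of opposite polarity in the Z-disc, with *Actn3* restricted in adult muscle to fast fibres. Around this lattice sit the PDZ-LIM protein Ldb3 (also called ZASP or cypher), the titin cap telethonin encoded by *Tcap*, the myozenins (also called calsarcins), which tether calcineurin to actinin, and myotilin encoded by *Myot*, an actin-bundling partner of actinin and filamin.

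In the GENCODE annotation of GRCm38, the actinin genes lie on 4 chromosomes, *Actn1* at chr12:80167547-80260371, *Actn2* at chr13:12269426-12340760, *Actn3* at chr19:4861216-4877909 and *Actn4* at chr7:28893248-28962340, all on the minus strand. *Ldb3* (chr14:34526603-34588682) and *Myoz1* (chr14:20649107-20656540) share a chromosome, as do *Myot* (chr18:44334074-44355724, plus strand) and *Myoz3* (chr18:60573750-60591788). *Myoz2* is at chr3:123006206-123035015 and *Tcap*, on the plus strand, at chr11:98383811-98384953. The counts are per gene, so splice forms are not separated.

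Depth on genes was 36555048 to 40895840 counts at D0 and 25449759 to 25811300 counts at D5. Levels are given as CPM, the counts of a gene relative to those of its library, after scaling by the trimmed mean of M values (TMM), or, where genes are compared with each other, as TPM, the same kind of relative level after division by exonic length. A gene at or under 3 counts in a library, about 0.0753 CPM at D0 and 0.120 CPM at D5, was treated as at the limit of detection. The 6 myotube markers checked (*Myog*, *Mymk*, *Myh3*, *Ckm*, *Acta1*, *Tnnt3*) were all higher at D5, with a summed level of 56.6 to 70.3 CPM at D0 and 11923 to 12753 CPM at D5, and the 6 markers of proliferating cells were all lower, from 1812 to 1826 CPM at D0 to 93.5 to 103 CPM at D5, where 42.2% of all genes tested were called higher and 40.8% lower. Because these are bulk samples, fewer cells of a type and less RNA per cell cannot be told apart.

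The non-muscle actinins *Actn1* and *Actn4* fell, *Actn3*, *Ldb3* and *Myoz1* rose, *Actn2*, *Tcap*, *Myoz2* and *Myot* were seen almost only at D5, and *Myoz3* stayed at or under the limit of detection in every library. In the edgeR quasi-likelihood test over 16290 genes, with Benjamini-Hochberg adjustment and a threshold of 0.05, 9 of the 10 genes could be tested, of which 7 were higher at D5 and 2 were lower. The same test called 82.9% of all genes tested, 42.2% as higher and 40.8% as lower, and DESeq2 called 78.4%, so the number of genes called is close to the background. The size of the changes did not set *Actn1*, *Actn3*, *Actn4*, *Ldb3* and *Myoz1* apart either, since percentile 5 and percentile 95 of the log2 fold change over all genes tested were -2.28 and 4.26. Of the 7 higher genes, *Actn2*, *Tcap*, *Myoz2* and *Myot* had 5 counts or fewer in every D0 library and passed the filter on low counts through D5 alone, so their direction was fixed by that filter. *Actn3*, *Ldb3* and *Myoz1* were well above the limit in all 6 libraries. *Myoz3* did not pass the filter. The groups did not overlap in CPM for any of the 9 genes tested. For the 4 that passed the filter through D5 alone this, too, was set by the filter, which leaves 5 genes. Of all genes tested, 42.2% had every D5 library above every D0 library and 41.1% had every D5 library below. Such separation was thus common among all genes.

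**Figure D1:**
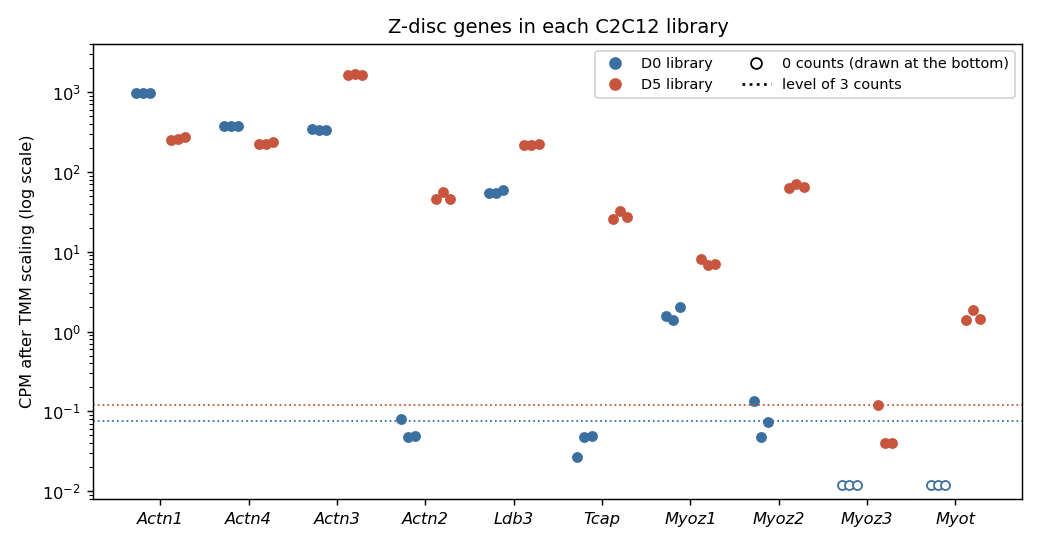
CPM after TMM scaling (log axis) of each Z-disc gene in the 3 D0 and the 3 D5 libraries, 1 point per library, with dotted lines at the level of 3 counts in each group and open circles for 0 counts. *Actn1* and *Actn4* sit lower at D5, *Actn3*, *Ldb3* and *Myoz1* sit higher, and *Actn2*, *Tcap* and *Myoz2* rise from around the dotted lines to between 25.9 and 70.2 CPM.

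*Actn1*, the major actinin of focal adhesions and stress fibres, was the most abundant of the 10 transcripts in myoblasts and fell the most. Its level was 962, 963 and 986 CPM in the 3 D0 libraries and 252, 256 and 272 CPM in the 3 D5 libraries. The groups lay far apart, and the D5 mean of 260 ± 10.8 CPM (SD, n = 3) was 26.8% of the D0 mean of 970 ± 13.6 CPM in the edgeR fit, a log2 fold change of -1.90 (SE 0.0347, edgeR adjusted p = 4.0e-29). *Actn4*, the second non-muscle actinin, which also enters the nucleus, fell less. It was at 372, 375 and 374 CPM at D0 and at 222, 225 and 234 CPM at D5. The D5 level was 60.8% of the D0 level, with a log2 fold change of -0.72 (SE 0.0322, edgeR adjusted p = 7.1e-19). The ratio of *Actn1* to *Actn4* in TPM therefore dropped from 2.87 ± 0.0408 at D0 to 1.27 ± 0.0166 at D5, without overlap (difference of the log2 ratio -1.18, two-sided exact permutation p = 0.1, the smallest that 3 against 3 libraries can give).

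*Actn3*, the fast-fibre sarcomeric actinin, was already abundant in myoblasts and rose further. Its level was 346, 338 and 338 CPM at D0 and 1650, 1661 and 1658 CPM at D5. The SD of the 3 D5 libraries was 5.72 CPM, and the change was 4.86-fold, a log2 fold change of 2.28 (SE 0.0326, edgeR adjusted p = 7.2e-32). *Actn2*, the sarcomeric actinin of heart and of all skeletal fibre types, was at the limit of detection in myoblasts. At D0 its counts were 3, 2 and 2, and at D5 they were 1148, 1363 and 1126, which is a level of 45.7, 55.3 and 45.2 CPM. Depth-scaled counts were 834 times higher at D5, with a 95% exact counting interval of 404 to 2075 that reflects the 7 counts at D0. The fitted log2 fold change was 9.61 (SE 0.159). No p-value is given for *Actn2*, since the filter on low counts fixed its direction.

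The 4 genes together changed much less than their composition. Summed actinin TPM was 1225 ± 22.6 at D0 and 2073 ± 28.7 at D5, a ratio of 1.69. In CPM, without division by length, the mean sum was 1684 at D0 and 2192 at D5, a ratio of 1.30. Within the TPM sum, *Actn1* went from 49.6 ± 0.474% to 7.03 ± 0.259%, and *Actn4* from 17.2 ± 0.154% to 5.55 ± 0.131%. *Actn3* went from 33.2 ± 0.470% to 85.5 ± 0.329%. *Actn2* was 0.0044% at D0 and 1.92 ± 0.219% at D5. The myoblast libraries thus held mostly non-muscle actinin transcripts and the myotube libraries mostly *Actn3*. The combined share of the sarcomeric forms, *Actn2* and *Actn3*, was 33.7, 33.1 and 32.8% in the D0 libraries and 87.7, 87.6 and 87.0% in the D5 libraries, a difference of 54.2 percentage points (two-sided exact permutation p = 0.1, the smallest possible). A share within a library does not depend on how the libraries are scaled to each other.

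**Figure D2:**
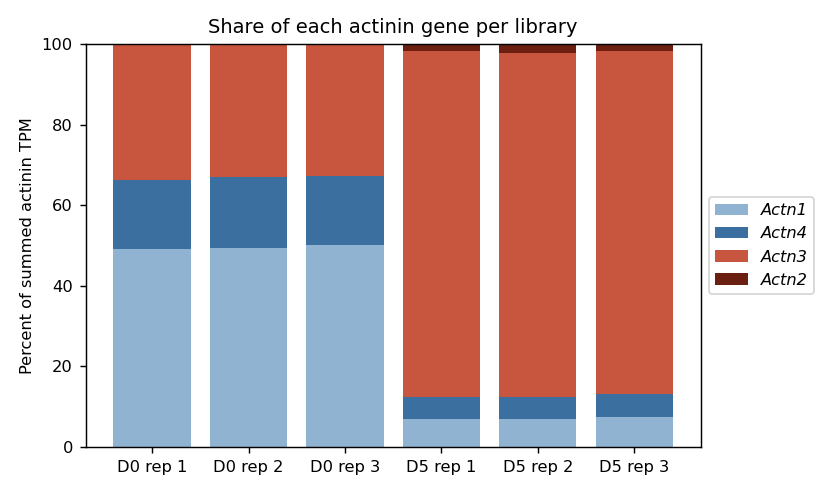
Percent of the summed TPM of the 4 actinin genes taken by each gene, stacked, in each of the 6 libraries. *Actn3* takes 32.8 to 33.7% at D0 and 85.2 to 85.8% at D5, while *Actn1* takes 49.1 to 50.1% at D0 and 6.87 to 7.33% at D5.

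Among the sarcomeric forms at D5, *Actn3* transcripts outnumbered *Actn2* transcripts in every library. The ratio of their TPM was 44.8 ± 4.80 (SD, n = 3), from 39.3 in the D5 library with the most *Actn2* to 47.9 in the library with the least. *Actn3* also overtook *Actn1*. The ratio of *Actn3* to *Actn1* in TPM was 0.670 ± 0.0157 at D0 and 12.2 ± 0.478 at D5, a difference of 4.18 on the log2 scale (two-sided exact permutation p = 0.1). The actinin genes are paralogs, but at most 0.290% of the 50-base stretches of any of these transcripts (*Actn1*) also occurred in another of the 10 genes. Exons of *Actn1* and *Actn4* are overlapped on the opposite strand over 8.15% and 5.16% of their length, and whether counting used strand is not given in the sources used here. The overlapping genes *Gm47766*, *Gm47767* and *Capn12* had at most 154, 20 and 11 counts in a library.

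The promoters of 3 actinin genes were at hand from RefSeq (GRCm38.p6), as the 250 bases before the annotated start on the minus strand, and they are shown because these genes moved in opposite directions. The windows are chr12:80260364-80260613 for *Actn1*, chr7:28962333-28962582 for *Actn4* and chr13:12340733-12340982 for *Actn2*, each written 5′ to 3′ in the direction of the gene. Capitals mark matches to the E-box CANNTG and to the M-CAT element CATTCC, searched on both strands. The E-box is a general site of basic helix-loop-helix factors, myogenic ones among them, and the M-CAT element is a site of TEAD factors.

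Actn1: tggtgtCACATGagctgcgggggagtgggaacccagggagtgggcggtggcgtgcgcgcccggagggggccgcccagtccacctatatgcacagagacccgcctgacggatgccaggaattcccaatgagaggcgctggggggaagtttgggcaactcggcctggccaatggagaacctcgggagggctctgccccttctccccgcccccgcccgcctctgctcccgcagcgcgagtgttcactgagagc

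Actn4: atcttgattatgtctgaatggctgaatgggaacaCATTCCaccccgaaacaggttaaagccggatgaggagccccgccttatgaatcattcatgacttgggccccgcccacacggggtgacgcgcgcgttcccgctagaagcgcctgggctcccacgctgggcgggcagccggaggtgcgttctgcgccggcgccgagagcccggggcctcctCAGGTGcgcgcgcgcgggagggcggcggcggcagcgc

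Actn2: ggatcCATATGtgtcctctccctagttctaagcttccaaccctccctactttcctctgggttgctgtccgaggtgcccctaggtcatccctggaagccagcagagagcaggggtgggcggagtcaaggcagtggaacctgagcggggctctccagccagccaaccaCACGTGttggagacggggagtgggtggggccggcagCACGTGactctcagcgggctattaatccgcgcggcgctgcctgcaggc

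The *Actn2* window held 3 E-box matches, CATATG at -245 and CACGTG at -84 and -48, counting back from the start. The windows of *Actn1* and *Actn4* held 1 each, CACATG at -244 and CAGGTG at -37, and *Actn4* also held CATTCC at -216. Of all 32851 promoter windows of this length, 66.2% held CANNTG and 12.6% held CATTCC, so these letters are common. The windows of *Actn1*, *Actn4* and *Actn2* had a GC content of 68.4%, 67.6% and 63.2% with 18, 29 and 12 CpG dinucleotides, against a median of 52.4% and 6 over all windows. *Actn3* had no entry in the promoter table.

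*Ldb3*, whose PDZ domain binds the C-terminal end of the sarcomeric actinins, rose from a moderate to a high level. It was at 54.8, 54.6 and 58.9 CPM at D0 and at 219, 219 and 221 CPM at D5. The change was 3.91-fold, a log2 fold change of 1.97 (SE 0.0361, edgeR adjusted p = 4.6e-29), and the groups were well separated. In TPM, *Actn3* was 12.8 ± 0.622 times *Ldb3* at D0 and 15.9 ± 0.107 times *Ldb3* at D5, so the ratio moved by only 0.31 on the log2 scale while both genes rose (two-sided exact permutation p = 0.1, the smallest possible). Its promoter window at chr14:34588682-34588931 (minus strand) is shown for the serum response factor site, the CArG box, that it holds in capitals.

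Ldb3: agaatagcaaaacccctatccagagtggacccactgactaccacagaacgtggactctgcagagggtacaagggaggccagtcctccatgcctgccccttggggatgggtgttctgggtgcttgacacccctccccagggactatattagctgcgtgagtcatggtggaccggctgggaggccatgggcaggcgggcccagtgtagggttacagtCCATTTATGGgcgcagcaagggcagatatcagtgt

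The match CCATTTATGG begins at -35, and 1.47% of all windows held a CArG box. A second annotated start of *Ldb3* gives an overlapping window, chr14:34588608-34588857, with the same match at -109.

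*Tcap*, which caps the N-terminal end of titin at the Z-disc, was at the limit of detection in myoblasts. It had 1, 2 and 2 counts at D0 and 652, 792 and 676 counts at D5, or 25.9, 32.1 and 27.2 CPM. Depth-scaled counts were 680 times higher at D5 (95% exact counting interval 291 to 2098), and the fitted log2 fold change was 9.28 (SE 0.184). The filter on low counts fixed this direction, so no p-value is given. The transcript is short, with an exonic length of 948 bases, so per length *Tcap* ranked above *Actn2* at D5. The ratio of *Tcap* to *Actn2* in TPM was 2.33 ± 0.0653 over the 3 D5 libraries.

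*Myot* came up to a low level only. It had 0 counts in all 3 D0 libraries and 35, 46 and 36 counts at D5, or 1.39, 1.87 and 1.45 CPM. Against the limit of 3 counts per D0 library, the level was at least 20.8-fold higher at D5. Here, too, the filter fixed the direction and no p-value is given.

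The 3 myozenins behaved differently from each other. *Myoz1*, the fast-fibre form, was low in myoblasts at 1.55, 1.40 and 2.01 CPM and reached 8.08, 6.89 and 7.03 CPM at D5. The groups did not overlap, and the change was 4.43-fold, a log2 fold change of 2.15 (SE 0.135, edgeR adjusted p = 3.7e-15). *Myoz2*, the form of heart and slow fibres, went from 5, 2 and 3 counts at D0 to 1580, 1732 and 1596 counts at D5, or 62.9, 70.2 and 64.1 CPM. Depth-scaled counts were 788 times higher (95% exact counting interval 428 to 1643), with a fitted log2 fold change of 9.56 (SE 0.124). The direction of *Myoz2* was fixed by the filter on low counts, so no p-value is given. *Myoz3*, the other fast-fibre form, had 0 counts in all D0 libraries and 3, 1 and 1 counts at D5. Both groups were at or under the limit, so no fold is given.

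Per length, *Myoz1* was 97.2 ± 1.52% of myozenin TPM at D0 and 16.8 ± 1.89% at D5, and *Myoz2* was 83.1 ± 1.95% at D5. These shares were computed after the values had been seen, and at D0 they rest on a summed level of 3.11 ± 0.616 TPM, against 71.7 ± 2.28 TPM at D5. *Myoz2* was 4.99 ± 0.666 times *Myoz1* in TPM at D5. The most abundant actinin and the most abundant myozenin of the D5 libraries were thus *Actn3*, the fast-fibre actinin, and *Myoz2*, the slow-fibre and cardiac myozenin. The promoter window of *Myoz2*, chr3:123034988-123035237 (minus strand), is shown because several matches to the motifs searched, in capitals, lie next to each other just before the start.

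Myoz2: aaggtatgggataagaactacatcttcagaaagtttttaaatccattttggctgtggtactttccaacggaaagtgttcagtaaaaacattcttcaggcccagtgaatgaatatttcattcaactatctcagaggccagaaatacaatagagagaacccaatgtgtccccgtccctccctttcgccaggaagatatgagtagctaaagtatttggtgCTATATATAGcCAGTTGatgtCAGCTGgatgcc

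The capitals mark a match to the MEF2 site, CTATATATAG at -33, and 2 to the E-box, CAGTTG at -22 and CAGCTG at -12. These are matches of letters, and whether any factor binds them was not tested. A MEF2 site was in 2.92% of all windows and CAGCTG, which is also counted as CANNTG, in 13.0%. GC content was 40.8% with 3 CpG dinucleotides, the lowest of the 5 genes with a window. *Myoz1*, *Myoz3*, *Tcap* and *Myot* had no entry in the promoter table.

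**Figure D3:**
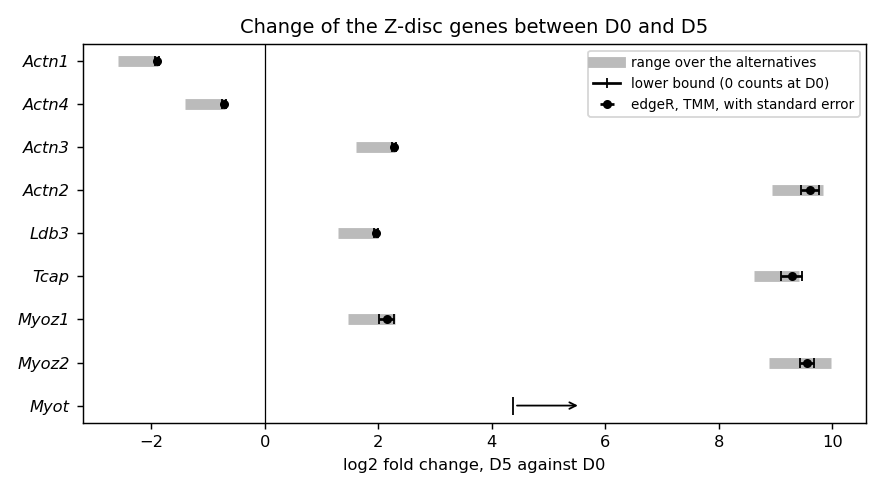
Log2 fold change, D5 against D0, of the 9 genes tested, with the standard error of the edgeR fit as bars and, in grey, the range over the alternative scalings, filters and designs. *Actn1* and *Actn4* lie below 0 and *Actn3*, *Ldb3* and *Myoz1* between 1.97 and 2.28, while *Myot* is drawn at its lower bound of 4.38.

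The order of the transcripts per length changed between the groups. At D0 it ran from *Actn1* (607 ± 17.0 TPM) over *Actn3* (406 ± 2.54 TPM), *Actn4* (211 ± 4.06 TPM) and *Ldb3* (31.8 ± 1.77 TPM) to *Myoz1* (3.03 ± 0.615 TPM). *Tcap*, *Myoz2* and *Actn2* followed, at 0.151, 0.0857 and 0.0537 TPM, and *Tcap* and *Myoz2* overlapped in range, as did *Myoz2* and *Actn2*. At D5 it ran from *Actn3* (1772 ± 29.6 TPM) to *Actn1* (146 ± 5.42 TPM), *Actn4* (115 ± 2.96 TPM) and *Ldb3* (112 ± 2.16 TPM), of which *Actn4* and *Ldb3* overlapped. *Tcap* (92.9 ± 9.17 TPM), *Myoz2* (59.6 ± 2.68 TPM), *Actn2* (39.8 ± 4.10 TPM), *Myoz1* (11.1 to 13.6 TPM) and *Myot* (2.20 ± 0.328 TPM) followed without overlap between neighbours. Both orders rest on exonic length and were not repeated with the longest transcript. In mean CPM, without division by length, *Actn4* (374) lay above *Actn3* (341) at D0. Among all genes tested, *Actn3* moved from percentile 98.1 to 99.7 in TPM, *Ldb3* from 69.8 to 92.3, *Tcap* from 4.98 to 90.4, *Myoz2* from 3.73 to 84.6 and *Actn2* from 2.91 to 77.1. *Actn1* and *Actn4* stayed among the abundant transcripts, from 98.7 to 94.5 and from 95.9 to 92.6.

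**Figure D4:**
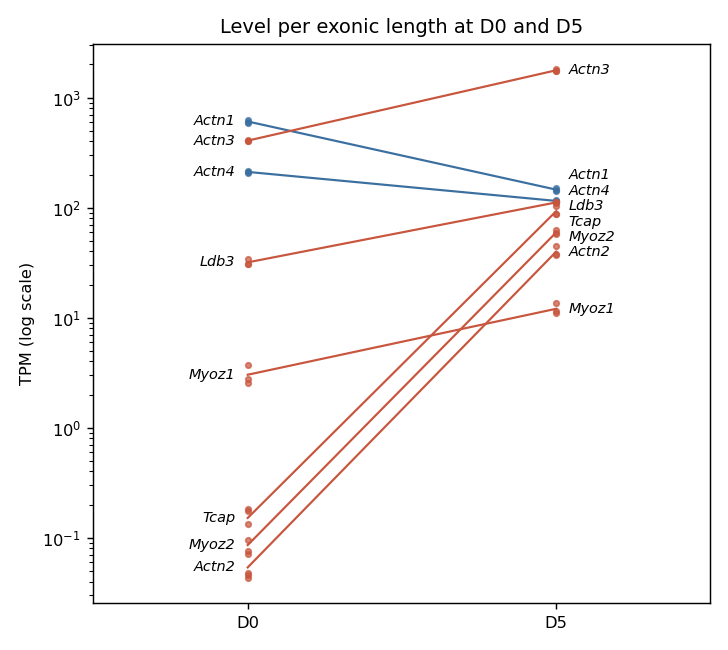
TPM (log axis) of each gene at D0 and D5, with 1 point per library and lines joining the group means, blue for the genes that fell and red for those that rose. *Myot* and *Myoz3*, at 0 in all D0 libraries, are not drawn. *Actn1* and *Actn3* cross, and *Tcap*, *Myoz2* and *Actn2* climb from under 1 TPM to between 36.8 and 103 TPM.

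Relatives of *Ldb3* with the same PDZ and LIM domains mostly fell. Of 6 such genes tested, 5 were lower at D5 and 1 was higher, with a median log2 fold change of -0.96, against 40.8% lower, 42.2% higher and a median of 0.00 over all genes tested. The falls were in *Pdlim1* (-2.51), *Pdlim7* (-1.88), *Pdlim4* (-1.34), *Pdlim3* (-0.58) and *Pdlim5* (-0.50), which encode adaptors of actin filaments, and the rise was in *Pdlim2* (1.91). With scaling to the spike-ins *Pdlim3* and *Pdlim5* lost their call (edgeR adjusted p = 0.0705 and 0.0891) at log2 fold changes of -1.15 and -1.09, with wider standard errors of 0.516 and 0.519. *Ldb3* and *Pdlim2* were thus the only genes of this family of 7 that rose. The related pair of palladin and myopalladin differed in direction. *Palld*, whose product sits in stress fibres, went from 886 to 257 CPM (log2 fold change -1.79), whereas *Mypn*, its sarcomeric counterpart, went from 2 counts in each D0 library to 523, 528 and 539 counts at D5 (425 times in depth-scaled counts, 95% exact counting interval 195 to 1160). *Mypn*, too, passed the filter on low counts through D5 alone, which fixed its direction.

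Of other Z-disc proteins, a list of 20 genes, 17 were higher and 3 were lower, against 42.2% and 40.8% of all genes tested, with a median log2 fold change of 0.89. The largest rises were in *Neb* (8.92), the giant ruler of the thin filament, and *Trim63* (8.37), a ubiquitin ligase of the sarcomere also called MuRF1. *Trim63*, *Csrp3* and *Myzap* were above the filter on low counts in all libraries at D5 alone. This fixed the direction of *Csrp3*, with 0 D0 libraries above the filter, and favoured that of *Trim63* and *Myzap*, with 1 and 2. Of the other 17 genes 14 were higher and 3 were lower. The lowest values were those of *Fhl1* (-2.34), a LIM protein, and *Capza1* (-0.68), a subunit of the actin capping protein CapZ. The number of higher genes in this list depended on scaling: it was 10 without scaling, where 20.6% of all genes tested were called higher, and 8 with scaling to the spike-ins, where 11.1% were. The median of all genes shifts by -0.68 and -0.58 under these scalings.

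Most genes of a list of focal adhesion and stress fibre proteins fell, as *Actn1* and *Actn4* did. Of 16 such genes, 15 were lower at D5 and 1 was higher, with a median log2 fold change of -0.90, against 40.8% lower and 42.2% higher among all genes tested. With scaling to the spike-ins 11 of them were called lower, as were 23.0% of all genes tested. *Flna* (-2.67) and *Lpp* (-2.67), which encode filamin A and a LIM protein that binds actinin, fell the most, and *Vasp* (-0.22), an actin elongation factor, was the least changed of the genes that fell, and with the spike-ins it was at -0.79 (SE 0.517) and was not called (edgeR adjusted p = 0.233). The higher gene, *Pxn* (0.09, edgeR adjusted p = 0.039), lost its call in most alternatives and turned to -0.59 without scaling and -0.49 with scaling to the spike-ins. Of the 4 calcineurin subunits, the phosphatase held by the myozenins, *Ppp3ca* (1.77), *Ppp3cc* (0.54) and *Ppp3r1* (0.21) were higher and *Ppp3cb* (0.04, edgeR adjusted p = 0.258) was not called. The signs of *Ppp3cb*, *Ppp3cc* and *Ppp3r1* turned without scaling and with scaling to the spike-ins, and that of *Ppp3ca* did not, although with the spike-ins, at 1.21, it was not called (edgeR adjusted p = 0.0589).

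**Figure D5:**
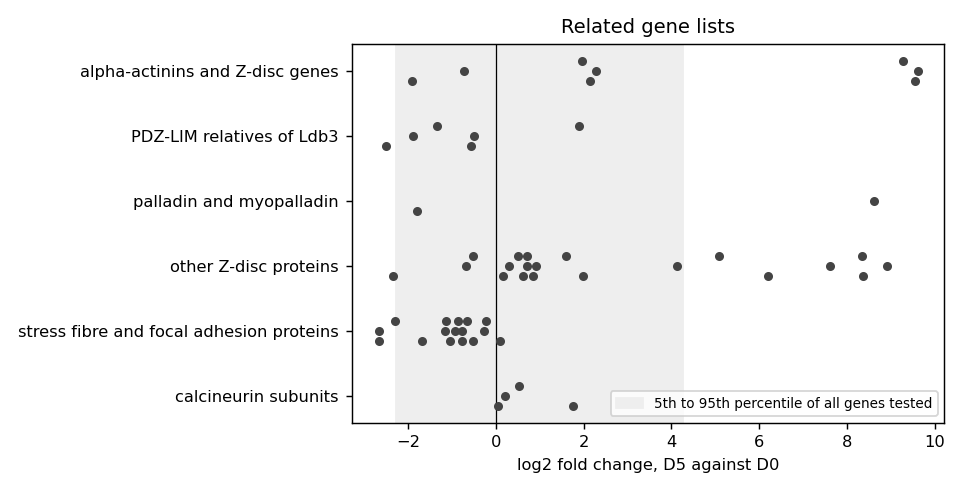
Log2 fold change, D5 against D0, of each gene tested in the alpha-actinin and Z-disc group and in the related lists, 1 point per gene, with a grey band from percentile 5 (-2.28) to percentile 95 (4.26) of all genes tested. *Myot* and *Myoz3* are not drawn, and focal adhesion and stress fibre genes lie at or below 0 except *Pxn* (0.09), while other Z-disc proteins reach 8.92.

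Markers of other cell types moved between the groups as well, and their part in these results was not tested. As given above, 42.2% of all genes tested were called higher and 40.8% lower. Of 5 cardiomyocyte markers tested, 2 were higher and 2 were lower, near those shares, with a summed level of 23.1 to 24.3 CPM at D0 and 43.6 to 50.8 CPM at D5. *Myh6* went from 1 count over the D0 libraries to 1993 counts over the D5 libraries, and *Nppa* had 0, 0 and 2 counts at D0 and 0 at D5. At a D5 mean of 26.7 CPM, *Myh6* carried the rise of the sum. The mean of *Gata4* went from 16.9 to 16.3 CPM, of *Nkx2-5* from 4.62 to 2.48 CPM and of *Nppb* from 1.51 to 0.175 CPM. That of *Tnni3* went from 0.589 to 1.78 CPM. All 5 fibroblast markers tested were higher, from 18.6 to 19.1 CPM at D0 to 479 to 512 CPM at D5, with *Tcf21* at 0 in all 6 libraries. *Lum* and *Dpt* among them, like *Myh6*, passed the filter on low counts through D5 alone, which fixed their direction. The filter also fixed that of *Nppb* and *Myocd*, which passed through D0 alone and were lower. *Dcn* was above the filter in all 3 D5 libraries and in 2 D0 libraries, so its direction was favoured but not fixed. Of 5 smooth muscle markers tested 3 were lower and 1, *Des*, which muscle also expresses, was higher, with sums of 5023 to 5235 CPM at D0 and 4387 to 4547 CPM at D5. These sums include *Des*, whose mean went from 2012 to 3313 CPM, and *Smtn*, which went from 126 to 131 CPM. By contrast, *Acta2* went from 2855 to 1011 CPM and *Cnn1* from 155 to 1.03 CPM. Adipocyte, endothelial and leukocyte sums were at most 20.3, 3.90 and 3.31 CPM in any library, and *Adipoq*, *Lep*, *Cidec* and *Ptprc* had at most 1 count.

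The genes closest to each actinin in pattern were ranked by the root mean square difference of centred log2 CPM over the 6 libraries, among 11000 genes. The nearest to *Actn1* were *Blnk* (0.0259), *Pdlim7* (0.0269) and *Igsf11* (0.0294), and the nearest to *Actn4* were *Kirrel* (0.0119), *Hnrnpl* (0.0158) and *Ap3d1* (0.0162). *Actn3* was nearest to *Resf1* (0.0200), *Wfs1* (0.0217) and *Sntb1* (0.0245). *Actn2* had more distant neighbours, *Tnni2* (0.109), *Prkag3* (0.111) and *Mybph* (0.113). At 3 counts or fewer in each D0 library, its values here depend strongly on the prior count of 2 added before the logarithm. With 2 groups of 3 libraries, such a ranking mainly sorts genes by the size of their change between D0 and D5.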

How the data were processed

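Total RNA of the 6 cultures was sequenced on an Illumina instrument after selection on RNA integrity. The authors aligned reads to GRCm38 (mm10) and deposited raw counts per gene from featureCounts, 1 library per culture. The labels name NGS-QC-Toolkit 2.3.3 and Tophat2 2.0.0 for quality control and alignment, and the paper's methods name other tools for these steps. The submitters' processing notes also name DESeq2 1.6.3. The annotation release and how multi-mapped reads were handled are not given in the sources used here. Library sizes and tests used gene rows only, without the 92 ERCC spike-in rows and 1 unnamed row that held the column total. Spike-ins took 0.720 to 2.09% of counts.

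From the deposited counts, edgeR 4.0.16 (R 4.3.3) gave TMM factors, CPM, log2 fold changes and quasi-likelihood p-values, by group alone, after filterByExpr, with Benjamini-Hochberg adjustment over 16290 genes. The script was tested on simulated data. TPM used the exonic length of the GENCODE annotation of GRCm38, which matched 99.8% of gene rows and all 10 genes. Of the 10, 2 (*Actn3* and *Myoz3*) were matched under another version of the identifier, so their lengths come from that version. The standard error of a log2 fold change is its size over the root of the F statistic. Counting intervals (95%, exact binomial) and the limit of 3 counts cover counting error only. The chi-square of replicate pairs, per degree of freedom, was 2.28 to 3.71, above sampling noise, so none was treated as a copy of another library. This does not show that the cultures were independent. Promoter motifs were searched as letters in 250 bases before RefSeq starts.

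The 10 genes and the gene lists were chosen with earlier results of these data known. All 10 genes may be named, as may each gene of a list of up to 6. From longer lists the 2 genes with the highest and the 2 with the lowest log2 fold change were taken. For pattern likeness, the 3 genes nearest each actinin were taken among those with a mean of at least 100 counts, using a prior count of 2 for log2 CPM. Alternatives were DESeq2 1.42.0, upper-quartile, total-count, spike-in and no scaling, other filters, the longest transcript or CPM for shares, the replicate number as a block, and leaving out each library.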

Additional observations from a re-analysis of the deposited data

Results flagged for a closer look

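The ERCC spike-ins, synthetic RNAs that no comparison above uses except as an alternative scaling, took unequal shares of the libraries. They were 2.09% of the counts in D5 replicate 3, the highest, and 0.720% in D5 replicate 2, the lowest, against 0.726 to 0.859% at D0. Groups of 3 libraries were not searched for outlying samples.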

How the results depend on the processing

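The 70 fold changes of *Actn1*, *Actn3*, *Actn4*, *Ldb3* and *Myoz1* under the alternatives kept their direction and their side of the threshold. So did the 52 of *Actn2*, *Tcap*, *Myoz2* and *Myot*, whose direction the filter fixed, so that these say nothing about stability. Sizes did move with scaling. Without scaling the log2 fold change was -2.58 for *Actn1*, -1.40 for *Actn4*, 1.60 for *Actn3*, 1.29 for *Ldb3* and 1.47 for *Myoz1*. The highest edgeR adjusted p came with spike-in scaling, 0.0404 for *Actn4* (log2 fold change -1.29, SE 0.521), 0.0265 for *Ldb3* (1.40, SE 0.524) and 0.0159 for *Myoz1* (1.55, SE 0.541). With spike-in scaling 5560 genes were called in place of 13510, and other Z-disc proteins higher at D5 numbered 8, against 10 without scaling and 17 with TMM. The share of calls that were lower was 49.2% with TMM, 76.6% without scaling and 67.4% with spike-in scaling. With at least 10 counts required in every library, 5 of the 10 genes were tested and 3 were higher (41.9% of all genes), and with no filter 8 were higher (26.1% of all genes) because *Myoz3* was then called. The rise in the share of sarcomeric actinins was 57.3 points with the longest transcript and 57.6 with CPM, and the log2 ratio of *Actn2* to *Actn3*, -5.48 as reported, was -5.15 and -5.09. Signs turned for *Ppp3cb* with total counts (-0.043), no scaling (-0.64), spike-ins (-0.51) and no filter (-0.012), for *Ppp3cc* (-0.15, -0.024), *Ppp3r1* (-0.47, -0.36) and *Pxn* (-0.59, -0.49) with no scaling and spike-ins in that order; the cause was not tested. Leaving out each library gave 13236 to 13599 genes called, 7 and 2 of the Z-disc genes in every case, a share difference of 54.0 to 54.5 and a log2 ratio of -5.57 to -5.43. Same-numbered D0 and D5 libraries correlated at 0.0329, 0.0645 and 0.0277 in their deviations, each library best with its own number but all under 0.1, so the numbers were not taken as pairs. The replicate block gave 13558 genes called and again 7 higher and 2 lower Z-disc genes. Depth limits *Actn2*, *Tcap*, *Myoz2*, *Myot* and *Myoz3* at D0.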

Other observations

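The genes *Actn2*, *Myoz2*, *Tcap* and *Myot*, with 5 counts or fewer in every D0 library, were all highest in the same D5 library, a pattern chosen after the values were seen. *Myoz3*, with 0 counts in every D0 library, was highest in another, D5 replicate 1. Its 3, 1 and 1 counts at D5 were at or under the limit of detection. In D5 replicate 2, *Actn2* was at 113%, *Myoz2* at 107%, *Tcap* at 113% and *Myot* at 119% of their D5 mean in CPM. Of all 16290 genes tested, 35.4% were highest in that library, as were 47.7% of the 193 genes with a log2 fold change of 8 or more and 5 of the 6 myotube markers. Of the 20 other Z-disc proteins 7 were highest there and 9 in D5 replicate 3, where *Mypn*, at 2 counts in each D0 library, was highest too. The 4 genes share a library, so they are not independent observations, and the difference between D5 libraries was not tested.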
